A study of Mus musculus with 20 samples.

Results

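The ER folding and secretion genes are 34 genes of the endoplasmic reticulum (ER), the compartment in which a hepatocyte makes, folds and checks the proteins it secretes. They were chosen by name for their known function, with earlier results of these data known. All 34 were found among 18193 genes on the arrays. A gene is represented by the probe set, a group of short probes against a transcript, with the highest mean over the 20 arrays. Of the 34, 24 had several probe sets and 10 had only 1. Every member lay above the median gene in mean level, with a median at percentile 94.9, a statement on probe brightness and not on how one gene's level compares with another's.

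Proteins bound for secretion enter the ER through a membrane channel, lose their signal peptide, and are folded by chaperones and by enzymes that form disulfide bonds. Proteins that fail to fold are drawn back out of the ER, tagged with ubiquitin and destroyed by the proteasome, a route called ER-associated degradation. When unfolded proteins build up, sensors in the ER membrane switch on transcription of chaperone, degradation and entry genes, a programme known as the unfolded protein response. Hepatocytes secrete most plasma proteins and so carry a large ER and express this machinery strongly.

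The arrays measured liver tissue of male C57BL/6 mice, all of which carried a conditional APCko allele, so the non-tumour samples carry it too and wild-type liver was not analysed here. Apc encodes a scaffold protein that restrains Wnt signalling. Per the protocols, every mouse received 0.75 mg tamoxifen intraperitoneally in a single injection at the age of 6 weeks and, beginning 1 week afterwards, was fed standard chow or a diet with 0.05% phenobarbital (PB) for 9 months. The 4 groups of 5 arrays were adenomas of mice on phenobarbital, carcinomas of mice without it, non-tumour liver of mice on phenobarbital (PB liver), and non-tumour liver of mice without it (untreated liver). Phenobarbital activates the nuclear receptor CAR and promotes liver tumours in rodents. The labels pair adenomas with PB liver and carcinomas with untreated liver as their controls. The design text names the carcinogen DEN in place of tamoxifen, and the label of the untreated group says H2O where the protocol says chow, and neither point was settled. The driver of the Cre recombinase that acts on the allele was not given in the sources used. Adenomas and carcinomas differ in diet and in stage at once, and the 2 cannot be told apart. Nothing in the labels states that each array of a group is a mouse of its own, so a p-value here weighs only the spread from sample to sample, which may be partly technical.

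Over the whole series, arrays of 1 group correlated across genes at 0.97 to 0.986 in adenomas, 0.957 to 0.988 in carcinomas, 0.994 to 0.995 in PB liver and 0.986 to 0.994 in untreated liver. Apc read 8.79 to 9.25 in adenomas, 10.53 to 10.97 in carcinomas, 8.43 to 8.71 in PB liver and 8.64 to 8.97 in untreated liver, and checks no label, since the deleted part of the gene is not given. The tissue label was borne out by hepatocyte markers in adenomas, PB liver and untreated liver. In carcinomas all 12 of 12 hepatocyte markers were lower than in untreated liver, with a median log2 difference of -4.28, and in adenomas 3 of 12 were lower than in PB liver. Their summed level, in linear units, was 2275 to 51577 in carcinomas and 188702 to 198933 in untreated liver, and 134935 to 153194 in adenomas and 173798 to 182420 in PB liver. Albumin alone read 9.18 to 14.03 in carcinomas and 14.92 to 15.03 in untreated liver, so carcinomas differed widely among themselves.

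Many of the members share a sequence element in front of the gene. The ER stress response element (ERSE), bound by ATF6 together with the factor NF-Y, was searched as CCAAT and CCACG with any 9 bases between them, on both strands, in the promoter window from 250 bases before to 50 bases after the start, in the RefSeq promoter table of build GRCm38.p6. Of 27 members with an entry, 9 held it (33.3%), against 37 of 27025 genes with an entry (0.137%) and 0.119% of all 32851 promoter windows. These 9 were Hspa5, Hsp90b1, Dnajc3, Creld2, Calr, Canx, Pdia6, Derl3 and Syvn1, with a pair of copies in Hsp90b1. The shorter ERSE-II, searched as ATTGG and CCACG with any single base between them, was found in Dnajb11 and Herpud1, neither of which held the longer element, which is 7.41% of the 27, against 0.0444% of all genes. The element of the XBP1 factor, searched as TGACGTGG, was in 0 of the 27 windows and in 0.714% of all genes. Atf6, Derl1, Hyou1, Manf, Sec61a1, Ssr2 and Tram1 had no entry. The members were chosen by name for their known function, so these shares describe them and are no test of the elements.

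The matches are printed 5′ to 3′ on the strand of the gene with 10 flanking bases on each side, since they carry the feature that these promoters share. Capitals mark the element. The ERSE begins with CCAAT where it runs with the gene and with CGTGG where it runs against it. The ERSE-II of Dnajb11 and Herpud1 runs with the gene and begins with ATTGG.
Hspa5, chr2:34772015-34772053, plus strand: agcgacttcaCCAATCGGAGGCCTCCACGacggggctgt
Hsp90b1, upstream copy, chr10:86705628-86705666, minus strand: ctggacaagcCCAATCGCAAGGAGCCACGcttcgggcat
Hsp90b1, downstream copy, chr10:86705523-86705561, minus strand: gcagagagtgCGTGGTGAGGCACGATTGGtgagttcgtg
Dnajc3, chr14:118937817-118937855, plus strand: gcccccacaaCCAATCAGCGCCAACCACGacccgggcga
Creld2, chr15:88819510-88819548, plus strand: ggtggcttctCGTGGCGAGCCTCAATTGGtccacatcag
Calr, chr8:84847065-84847103, minus strand: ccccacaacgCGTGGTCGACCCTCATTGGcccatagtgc
Canx, chr11:50325790-50325828, minus strand: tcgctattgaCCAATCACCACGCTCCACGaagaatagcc
Pdia6, chr12:17266481-17266519, plus strand: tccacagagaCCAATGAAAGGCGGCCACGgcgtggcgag
Derl3, chr10:75893232-75893270, plus strand: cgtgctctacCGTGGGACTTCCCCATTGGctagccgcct
Syvn1, chr19:6046522-6046560, plus strand: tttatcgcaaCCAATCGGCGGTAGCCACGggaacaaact
Dnajb11, ERSE-II, chr16:22857842-22857872, plus strand: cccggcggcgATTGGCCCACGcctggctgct
Herpud1, ERSE-II, chr8:94386367-94386397, plus strand: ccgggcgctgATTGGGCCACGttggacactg

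The ERSE-bearing members whose tumour effects differed between adenomas and carcinomas were Hspa5, Dnajc3, Creld2, Derl3 and Syvn1. The whole windows of Hspa5 and Creld2 are shown as examples of them, and the Hspa5 call depended on single arrays, as given below. Capitals again mark the element.
Hspa5, chr2:34771840-34772139, plus strand: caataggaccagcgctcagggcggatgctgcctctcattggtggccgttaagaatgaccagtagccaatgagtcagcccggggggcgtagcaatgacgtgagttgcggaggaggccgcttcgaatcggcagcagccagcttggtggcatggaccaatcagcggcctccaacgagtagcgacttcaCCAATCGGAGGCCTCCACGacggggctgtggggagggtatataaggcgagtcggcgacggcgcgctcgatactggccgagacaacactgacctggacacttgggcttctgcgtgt
Creld2, chr15:88819396-88819695, plus strand: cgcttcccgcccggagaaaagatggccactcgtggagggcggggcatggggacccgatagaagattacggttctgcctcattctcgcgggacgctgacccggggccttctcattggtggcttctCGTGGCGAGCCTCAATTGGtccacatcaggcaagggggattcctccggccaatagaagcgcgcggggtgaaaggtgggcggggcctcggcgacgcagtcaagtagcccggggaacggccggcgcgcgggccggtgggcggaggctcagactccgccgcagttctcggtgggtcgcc

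In carcinomas most of the 34 genes were lower than in untreated liver. The strongest falls were in degradation and folding genes, among them Derl2, Pdia5 and Edem1, while the channel gene Sec61a1, the derlin gene Derl1 and the co-chaperone gene Dnajb11 were higher. A gene is said to have passed the test, or to be higher or lower, where limma's adjusted p over all 18193 genes was under 0.05. By that test 20 of 34 members (58.8%) were lower in carcinomas than in untreated liver, against 37.7% of all genes, and 3 were higher (8.82%), against 31.5% of all genes. Among 12649 genes left by a filter on dim probe sets, which these bright members all pass, 35.0% were lower and 41.4% higher. The median log2 difference was -0.52 over the members and -0.12 over all genes. Of the 34 members 7 passed and differed at least 2-fold, which is 1 on the log2 scale, against 5153 of 18193 genes. The 5 carcinomas and the 5 untreated livers did not overlap for 20 members (58.8%), against 53.4% of all genes. In bulk tissue, fewer hepatocytes and less of a transcript per hepatocyte cannot be told apart.

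Adenomas differed less from their PB livers. There 11 of 34 members (32.4%) were lower, against 11.3% of all genes and 14.8% of the genes left by the dim filter. Higher were 2 members, Derl1 and Creld2 (5.88%), against 13.5% of all genes. The median log2 difference was -0.13 over the members and -0.034 over all genes. Of the 34 members 0 passed with a difference of at least 2-fold, against 1181 of 18193 genes. The groups did not overlap for 8 members (23.5%), against 19.4% of all genes. Between PB liver and untreated liver 0 of 34 members passed limma's test, against 0.203% of all genes higher and 0.022% lower. Before adjustment, 2 of 34 members had a limma p under 0.05, against 1070 of 18193 genes.

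**Figure D1:**
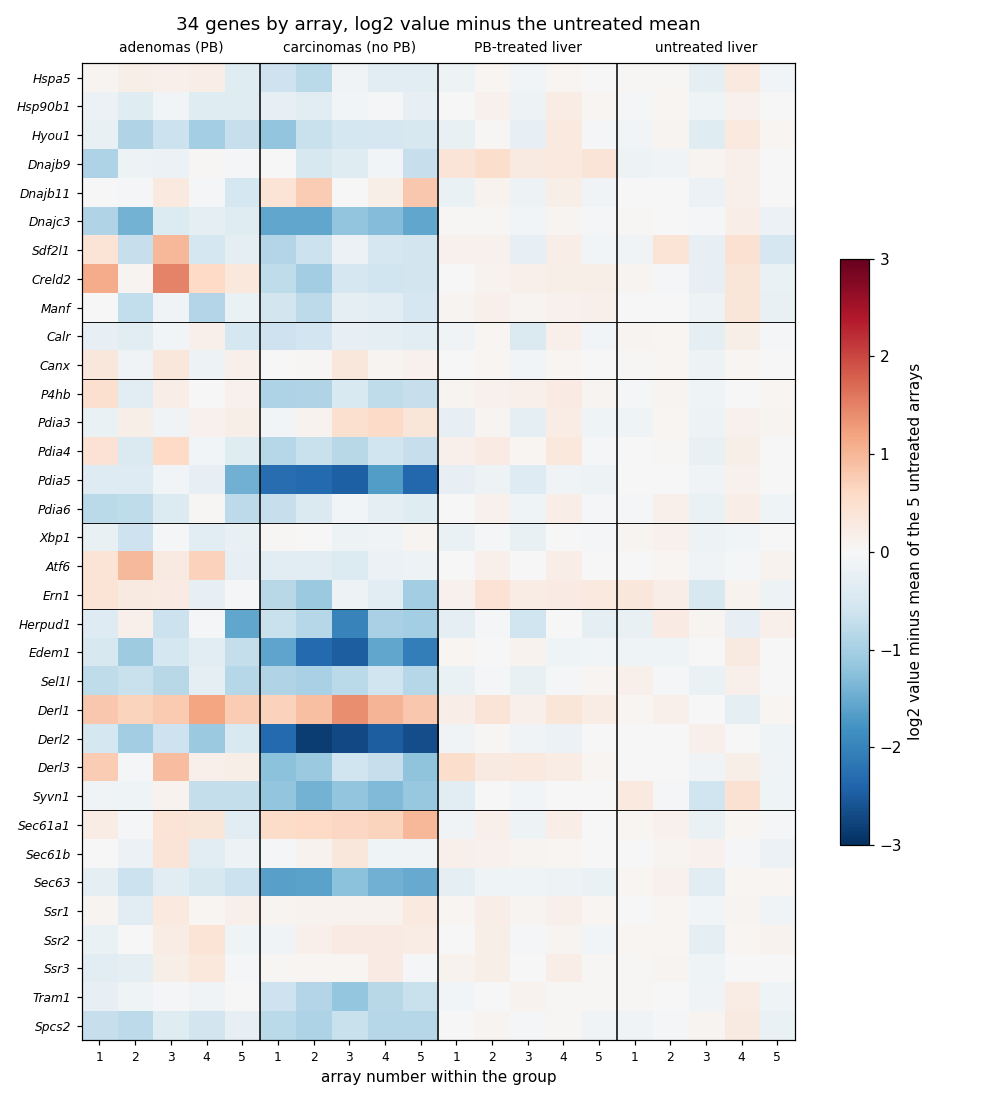
Log2 value of each of the 34 genes (rows, grouped by role) on each of the 20 arrays (columns) minus the mean of the 5 untreated arrays, with red above and blue below that mean. Derl2, Pdia5 and Edem1 are dark blue in all 5 carcinomas, Derl1 is red in all tumours, and the PB and untreated columns are pale.

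Markers of other cell types moved in both directions in the tumours. In carcinomas 7 of 8 endothelial markers were lower than in untreated liver, with a summed linear level of 362 to 632 in carcinomas and 3390 to 4345 in untreated liver. Stab2, Lyve1 and Oit3 lay at or below the median of all values in carcinomas alone, and Pecam1 in carcinomas, PB liver and untreated liver. In adenomas 2 of the 8 were lower and 1 higher, at 2682 to 3197 against 3903 to 4702 in PB liver. Of 8 plasma and B cell markers 7 were lower, at 315 to 680 in carcinomas and 1238 to 1930 in untreated liver, and in adenomas 1 of 8 was lower, at 446 to 2010 against 1519 to 5716 in PB liver. Plasma cells are rich in this machinery. Cd79a, Ms4a1, Tnfrsf17 and Pou2af1 lay at or below the median of all values in all 4 groups, and Cd79b in carcinomas alone. Stellate and fibroblast markers were higher in carcinomas for 5 of 8 (23867 to 55626, against 4932 to 9018 in untreated liver) and in adenomas for 4 of 8, with 2 lower (3608 to 13187, against 5734 to 7175 in PB liver). Kupffer cell markers were lower for 5 of 8 in carcinomas (1787 to 4460, against 3684 to 7018 in untreated liver) and for 4 of 8 in adenomas, with 1 higher there (2746 to 8490, against 6109 to 7874 in PB liver), and Marco and Timd4 lay at or below the median of all values in both tumour types. Bile duct markers were higher for 2 of 6 in carcinomas, with 1 lower (5612 to 10554, against 318 to 666 in untreated liver), and for 1 of 6 in adenomas (1130 to 2685, against 457 to 699 in PB liver). Cftr lay at or below that median in all 4 groups, Krt7 in all but carcinomas, and Krt19 in PB liver and untreated liver. The part of these cell types in the results of the 34 genes was not tested.

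**Figure D2:**
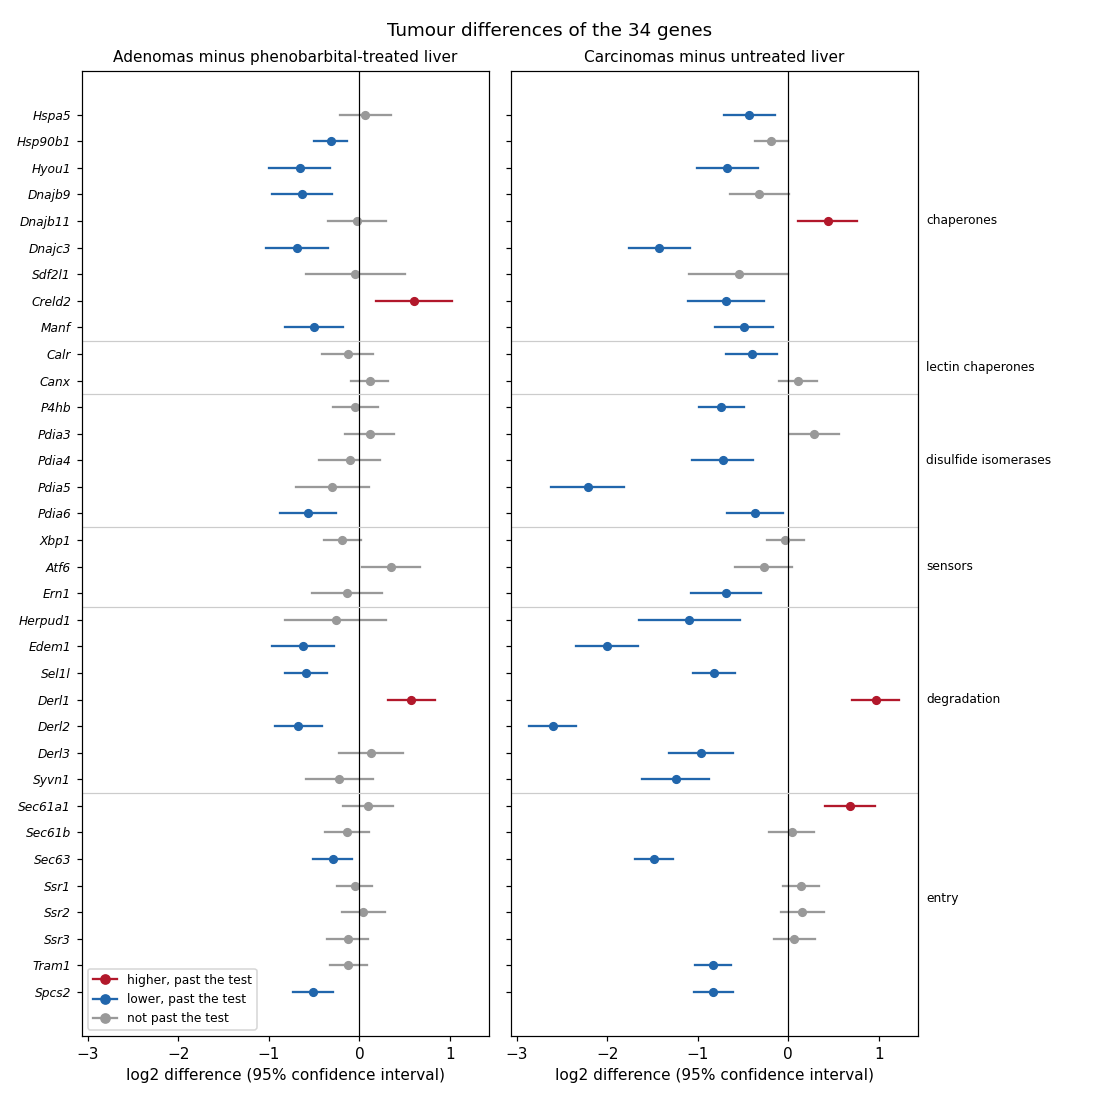
Log2 difference (point) with its 95% confidence interval (bar) for each of the 34 genes, adenomas minus PB liver on the left and carcinomas minus untreated liver on the right. Red and blue points passed the test, and in carcinomas the blue points reach -2.61 for Derl2, while the lowest adenoma difference is -0.69 for Dnajc3.

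Among the 9 chaperones and their helpers, 5 were lower and 1 was higher in each tumour type, but not the same genes in each. Each tumour type was set against its own control. Of all genes 37.7% were lower and 31.5% higher in carcinomas, and 11.3% and 13.5% in adenomas. These shares stand beside the counts of each role group below. Dnajc3 encodes a co-chaperone of BiP, the main Hsp70 chaperone of the ER. It read 10.69, 10.17, 11.17, 11.29 and 11.23 in adenomas and 11.63, 11.62, 11.52, 11.68 and 11.56 in PB liver. The carcinomas read 10.04, 10.04, 10.41, 10.28 and 10.03, and untreated liver 11.62, 11.59, 11.53, 11.79 and 11.40. Neither tumour type overlapped its control, and the carcinomas lay within a narrow band. The log2 difference, given here and after with its standard error (SE), was -0.69 ± 0.16 for adenomas, with an adjusted p of 0.00388, and -1.43 ± 0.16 for carcinomas, which left 37.2% of the untreated level (adjusted p 2.02e-07).

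Hspa5, the gene of BiP itself, read 13.37, 13.47, 13.43, 13.48 and 12.92 in adenomas and 13.13, 13.35, 13.21, 13.35 and 13.31 in PB liver. All adenomas but array 5 lay above the highest PB liver, and array 5 lay below all of them. Carcinomas read 12.67, 12.49, 13.19, 12.97 and 12.97, and untreated liver 13.33, 13.32, 13.02, 13.58 and 13.21, so carcinoma 3 overlapped the untreated range. BiP mRNA was lower in carcinomas, with a log2 difference of -0.43 ± 0.13 (adjusted p 0.00775) and did not pass the test in adenomas (0.065 ± 0.13, adjusted p 0.776, 95% interval -0.22 to 0.35).

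Creld2, an ER protein induced by unfolded proteins, was the only member higher in adenomas and lower in carcinomas. Adenomas read 10.41, 9.38, 10.78, 9.88 and 9.60, against 9.28, 9.39, 9.44, 9.46 and 9.46 in PB liver. The adenomas were scattered, with arrays 1 and 3 highest and array 2 within the PB range. Carcinomas read 8.53, 8.24, 8.79, 8.68 and 8.73, all below the untreated livers at 9.38, 9.26, 9.05, 9.66 and 9.09. The log2 difference was 0.60 ± 0.20 in adenomas (adjusted p 0.0331) and -0.69 ± 0.20 in carcinomas (adjusted p 0.00488). The adenoma call was lost when PB array 1, 2, 3, 4 or 5 or adenoma array 1 or 3 was left out, with an adjusted p of up to 0.0974, and when only the groups compared were fitted (0.0746).

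Hyou1, a large chaperone that helps BiP release its nucleotide, was lower in adenomas (-0.66 ± 0.16, adjusted p 0.00537) and in carcinomas (-0.67 ± 0.16, adjusted p 0.00121). Its level was 8.83 to 9.62 in adenomas and 9.61 to 10.14 in PB liver, which overlap, and 8.66 to 9.36 in carcinomas and 9.49 to 10.13 in untreated liver, which do not. Manf, a secreted ER protein that binds BiP, showed near-equal falls, -0.50 ± 0.16 in adenomas and -0.49 ± 0.16 in carcinomas, with adjusted p 0.0225 and 0.00849 in that order. Its groups did not overlap in either tumour type, but its adenoma call was lost without adenoma array 2 or 4 (adjusted p up to 0.066).

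Hsp90b1, the Hsp90 chaperone of the ER, and Dnajb9, a co-chaperone that restrains the sensor IRE1, were lower in adenomas, and in carcinomas did not pass on the probe set used. Hsp90b1 read 12.44 to 12.73 in adenomas and 12.67 to 13.03 in PB liver (-0.32 ± 0.088, adjusted p 0.0119), and its carcinoma difference was -0.19 ± 0.088 (adjusted p 0.0659). Its other probe set was lower by nearly the same amount in both, -0.657 in adenomas (adjusted p 0.00433) and -0.658 in carcinomas (adjusted p 0.000961), and the carcinoma call was also gained with the mean of both probe sets (-0.422, adjusted p 0.00182), after centring and with array weights. For Dnajb9 the adenomas read 10.15, 10.93, 10.90, 11.11 and 11.04, all below the PB livers at 11.48, 11.62, 11.36, 11.38 and 11.48. That difference was -0.64 ± 0.16 (adjusted p 0.00551), and in carcinomas it was -0.32 ± 0.16 (adjusted p 0.0756). The Dnajb9 carcinoma call was gained after centring (adjusted p 0.0315) and with array weights (0.0174). For neither gene did the adenoma and carcinoma differences differ from each other by the test, with adjusted p 0.411 for Hsp90b1 and 0.259 for Dnajb9.

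Dnajb11, a BiP co-chaperone that binds unfolded chains directly, went the other way in carcinomas. Those read 10.17, 10.52, 9.77, 9.94 and 10.58, and untreated livers read 9.79, 9.77, 9.59, 9.91 and 9.75. Carcinomas 1, 2, 4 and 5 lay above the untreated range and carcinoma 3 inside it. The difference was 0.43 ± 0.16 (adjusted p 0.0183), lost without carcinoma 2 or 5 (adjusted p up to 0.0618), and in adenomas it was -0.025 ± 0.16 (adjusted p 0.928). Sdf2l1, which works in a complex with Dnajb11, passed in neither tumour type in the main fit, with -0.043 ± 0.26 in adenomas and -0.55 ± 0.26 in carcinomas (adjusted p 0.0663). Its carcinoma call was gained after quantile normalization (-0.763, adjusted p 0.0127), after centring (0.0411), with array weights (0.0428) and when only the groups compared were fitted (0.0305).

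The lectin chaperones Calr and Canx hold newly made glycoproteins by their sugar chains. Calr was lower in carcinomas, at 11.995, 12.06, 12.39, 12.35 and 12.31, against 12.71, 12.69, 12.32, 12.81 and 12.60 in untreated liver. Carcinomas 3 and 4 lay just above untreated array 3, the lowest of its group. The difference was -0.41 ± 0.14 (adjusted p 0.0121), and after quantile normalization it was -0.28 with an adjusted p of 0.0868. In adenomas Calr differed by -0.13 ± 0.14 (adjusted p 0.547). Canx passed in neither, at 0.11 ± 0.099 in adenomas and 0.11 ± 0.099 in carcinomas, with 95% intervals of -0.095 to 0.32 and -0.099 to 0.32. Of its 2 other probe sets, 1 was lower in carcinomas (-0.367, adjusted p 0.0337) and the dimmest was lower in adenomas (-0.52, adjusted p 0.039).

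Of the 5 disulfide isomerases, which make and reshuffle disulfide bonds, 4 were lower in carcinomas and 1 in adenomas. The shares of all genes that were lower were 37.7% and 11.3%. Pdia5 fell most. It read 9.95, 9.95, 10.25, 10.09 and 8.89 in adenomas and 10.09, 10.18, 9.94, 10.23 and 10.18 in PB liver. Carcinomas read 8.05, 7.99, 7.88, 8.66 and 7.97, and untreated liver 10.32, 10.34, 10.24, 10.45 and 10.31. Every carcinoma lay well under every untreated liver, with carcinoma 4 the highest of its group, and adenoma 5 alone lay far below the other adenomas. The carcinoma difference of -2.22 ± 0.19 left 21.5% of the untreated level (adjusted p 3.59e-09), and the adenoma difference was -0.30 ± 0.19 (adjusted p 0.284).

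P4hb encodes the classical isomerase PDI. It read 13.78, 12.99, 13.51, 13.30 and 13.42 in adenomas and 13.39, 13.43, 13.45, 13.55 and 13.39 in PB liver. The carcinomas read 12.37, 12.40, 12.85, 12.54 and 12.61, all below the untreated livers at 13.24, 13.39, 13.17, 13.32 and 13.36, while the adenomas spread to both sides of the PB range. The difference was -0.74 ± 0.12 in carcinomas (adjusted p 1.61e-05) and -0.043 ± 0.12 in adenomas (adjusted p 0.835). Pdia4 did likewise by the test, with -0.73 ± 0.16 in carcinomas (adjusted p 0.000507) and -0.11 ± 0.16 in adenomas (adjusted p 0.672), although its other, dim probe set gave -0.084 in carcinomas (adjusted p 0.529).

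Pdia6, which also acts on the sensor IRE1, was lower in both tumour types, with -0.57 ± 0.15 in adenomas (adjusted p 0.0075) and -0.37 ± 0.15 in carcinomas (adjusted p 0.0339). The ranges overlapped, at 10.38 to 11.22 in adenomas and 11.05 to 11.38 in PB liver, and 10.50 to 11.09 in carcinomas and 10.996 to 11.39 in untreated liver. The carcinoma call was lost without untreated array 2 or 4 or carcinoma 1, 2 or 5 (adjusted p up to 0.1), after quantile normalization (0.0606), and without untreated arrays 3 and 4 together (0.0774). Pdia3, the isomerase that works with Calr and Canx, passed in neither, with 0.11 ± 0.13 in adenomas and 0.29 ± 0.13 in carcinomas (adjusted p 0.0556), and its other probe set, far dimmer, was lower in carcinomas (-0.36).

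Of the 3 genes of stress sensors and their factors, 1 was lower in carcinomas and 0 passed in adenomas. Ern1 encodes the sensor IRE1, Atf6 a membrane-bound factor freed by cutting in the Golgi, and Xbp1 the factor whose mRNA IRE1 splices. Ern1 was lower in carcinomas, 9.06 to 10.04 against 9.70 to 10.51 in untreated liver (-0.69 ± 0.18, adjusted p 0.0027), and differed by -0.14 ± 0.18 in adenomas (adjusted p 0.645). The dimmest of its 5 probe sets gave -0.229 in carcinomas (adjusted p 0.0666). Atf6 passed in neither tumour type on the probe set used. It read 9.67, 10.24, 9.52, 9.96 and 9.02 in adenomas and 9.28, 9.41, 9.25, 9.47 and 9.24 in PB liver, where adenomas 1 to 4 lay above every PB liver and adenoma 5 below, with a difference of 0.35 ± 0.15 (adjusted p 0.101). Carcinomas read 8.95, 8.93, 8.86, 9.09 and 9.12, all under the untreated livers at 9.26, 9.32, 9.16, 9.21 and 9.38, with -0.27 ± 0.15 (adjusted p 0.116). Both other Atf6 probe sets were higher in adenomas (0.709, adjusted p 0.00677, and 0.611, adjusted p 0.0306), and 1 of them was lower in carcinomas (-0.541, adjusted p 0.0209). The adenoma difference also passed with the mean of all probe sets (0.558, adjusted p 0.0164) and without adenoma 5 (0.518, adjusted p 0.00301).

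Xbp1 averaged 12.08 ± 0.21 in adenomas and 12.27 ± 0.11 in PB liver, and 12.33 ± 0.096 in carcinomas and 12.37 ± 0.12 in untreated liver (mean ± SD, n = 5 each). Its differences were -0.19 ± 0.097 (95% interval -0.39 to 0.015) and -0.032 ± 0.097 (-0.23 to 0.17) in that order, and neither passed. Of its 3 other probe sets 2 were lower in carcinomas (-0.286, adjusted p 0.043, and -0.678, adjusted p 0.000111), as was the mean of all (-0.237, adjusted p 0.048), and 0 passed in adenomas. The Xbp1 result in carcinomas thus depended on the probe set. Xbp1 splicing was not analysed here.

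Of the role groups, degradation genes had the lowest median in carcinomas. All 7 passed the test in carcinomas, 6 lower and 1 higher, with a median log2 difference of -1.10. The 5 carcinomas and 5 untreated livers were apart for each of the 7. Of all genes 37.7% were lower and 31.5% higher in carcinomas, and the groups were apart for 53.4%. In adenomas 3 were lower and 1 higher, against 11.3% and 13.5% of all genes. Derl2, of the derlins that help pull proteins back out of the ER, read 10.99, 10.48, 10.90, 10.41 and 11.07 in adenomas and 11.42, 11.55, 11.40, 11.34 and 11.53 in PB liver. Carcinomas read 9.19, 8.67, 8.82, 9.05 and 8.85, and untreated liver 11.53, 11.52, 11.66, 11.50 and 11.39. Neither tumour type overlapped its control, and the carcinomas lay lowest of all. The difference was -0.68 ± 0.12 in adenomas (adjusted p 0.000483) and -2.61 ± 0.12 in carcinomas, 16.4% of the untreated level (adjusted p 5.23e-13). The size in carcinomas depended on the probe set: the other Derl2 probe set gave -0.88 in carcinomas and -0.96 in adenomas.

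Derl1, a relative of Derl2, rose in both tumour types. It read 11.68, 11.54, 11.66, 12.05 and 11.64 in adenomas and 11.07, 11.27, 11.03, 11.23 and 11.09 in PB liver. Carcinomas read 11.57, 11.78, 12.27, 11.90 and 11.70, and untreated liver 10.94, 11.03, 10.88, 10.59 and 10.94. Every tumour lay above every liver of its control. The difference was 0.58 ± 0.12 in adenomas (adjusted p 0.00193) and 0.97 ± 0.12 in carcinomas (adjusted p 1.01e-06). Of its 3 other probe sets all were higher in adenomas (0.46 to 1.09), while in carcinomas 2 were higher and 1 read -0.24 (adjusted p 0.0542). Derl3, the remaining derlin, read 7.98, 7.20, 8.16, 7.38 and 7.41 in adenomas and 7.75, 7.49, 7.52, 7.46 and 7.28 in PB liver. Carcinomas read 6.000, 6.11, 6.64, 6.54 and 6.01, all under the untreated livers at 7.24, 7.24, 7.13, 7.41 and 7.13. Only the carcinoma difference passed, at -0.97 ± 0.17 (adjusted p 4.69e-05), against 0.13 ± 0.17 in adenomas (adjusted p 0.638).

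Edem1 recognises trimmed sugar chains on misfolded glycoproteins and passes them to degradation. It read 10.13, 9.55, 10.09, 10.28 and 9.91 in adenomas and 10.67, 10.64, 10.73, 10.50 and 10.54 in PB liver. Carcinomas read 9.04, 8.30, 8.15, 9.07 and 8.54, and untreated liver 10.50, 10.49, 10.63, 10.88 and 10.62. Both tumour types lay wholly below their controls. The difference was -0.62 ± 0.17 in adenomas (adjusted p 0.00863) and -2.003 ± 0.17 in carcinomas, or 25% of the untreated level (adjusted p 1.77e-09).

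Syvn1 is the ubiquitin ligase of the degradation complex, Sel1l its adaptor and Herpud1 its scaffold. Syvn1 read 8.43, 8.20, 8.43, 8.29 and 8.48 in carcinomas, against 9.90, 9.59, 9.02, 10.08 and 9.49 in untreated liver, where the spread was wide but the groups did not overlap. Its carcinoma difference was -1.25 ± 0.18 (adjusted p 4.3e-06) and its adenoma difference -0.22 ± 0.18 (adjusted p 0.408). Herpud1 read 10.84, 10.65, 9.498, 10.53 and 10.49 in carcinomas and 11.27, 11.75, 11.58, 11.24 and 11.65 in untreated liver, with carcinoma 3 far below the rest. It was lower, at -1.10 ± 0.27, in carcinomas (adjusted p 0.0013) and differed by -0.26 ± 0.27 in adenomas (adjusted p 0.525). Sel1l was lower in both, with -0.59 ± 0.11 in adenomas (9.43 to 10.01, against 10.06 to 10.34 in PB liver, adjusted p 0.000634) and -0.82 ± 0.11 in carcinomas (9.31 to 9.69, against 10.08 to 10.43 in untreated liver, adjusted p 2.26e-06).

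**Figure D3:**
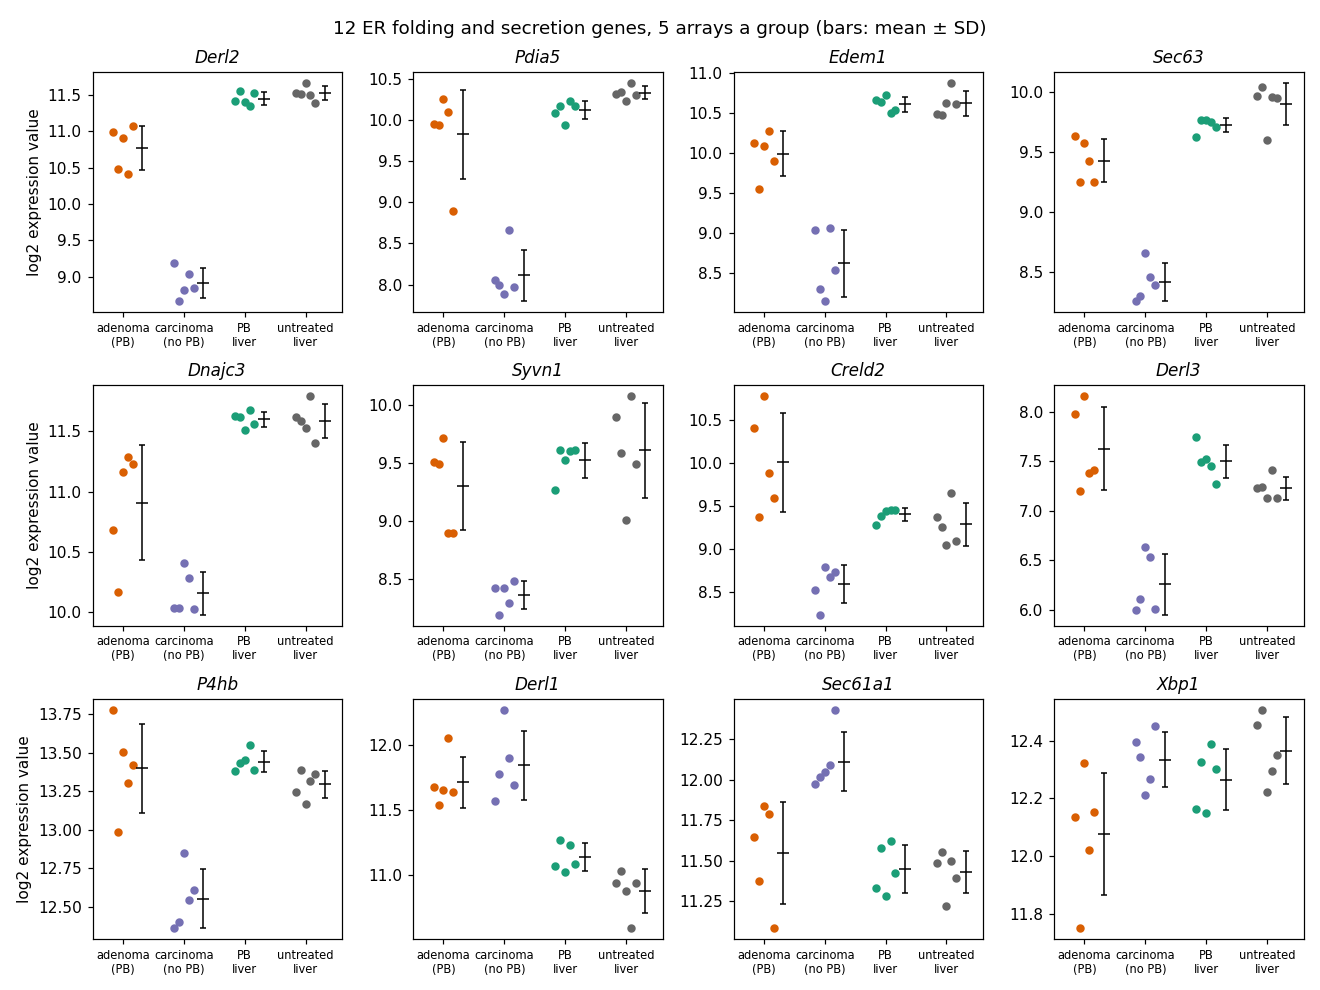
Log2 expression value of 12 of the genes on each array (points) with mean ± SD (bars) for adenomas, carcinomas, PB liver and untreated liver, 5 arrays a group. Carcinomas lie lowest for Derl2, Pdia5, Edem1, Sec63, Dnajc3 and Syvn1, and above both liver groups for Derl1 and Sec61a1, while Xbp1 overlaps across the groups.

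The 8 entry genes did not move together. In carcinomas 3 were lower, 1 was higher and 4 did not pass, with a median log2 difference of 0.051. Of all genes 37.7% were lower there and 31.5% higher. Sec61a1, the channel-forming subunit, was higher there. It read 11.97, 12.02, 12.05, 12.09 and 12.43 in carcinomas and 11.48, 11.55, 11.22, 11.50 and 11.39 in untreated liver, with every carcinoma above every untreated liver and carcinoma 5 highest. The difference was 0.68 ± 0.13 (adjusted p 0.000133), and 0.098 ± 0.13 in adenomas (adjusted p 0.642). Of its 5 other probe sets, 2 were higher in carcinomas and 3 did not pass.

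Sec63, a membrane partner of the channel that recruits BiP, was lower. It read 9.64, 9.25, 9.58, 9.43 and 9.25 in adenomas and 9.63, 9.77, 9.76, 9.75 and 9.71 in PB liver. Carcinomas read 8.26, 8.30, 8.66, 8.46 and 8.40, and untreated liver 9.97, 10.04, 9.60, 9.96 and 9.95. The carcinomas stood well apart, while adenoma 1 lay just inside the PB range. The difference was -1.49 ± 0.10 in carcinomas (adjusted p 1.23e-10) and -0.30 ± 0.10 in adenomas (adjusted p 0.0394). The adenoma call was lost without PB array 2, 3, 4 or 5 or adenoma 2, 4 or 5 (adjusted p up to 0.0985) and after centring each array on its median (0.0704). The other 4 probe sets ranged in carcinomas between -1.85 and -0.038, and 3 of them were lower by the test.

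Spcs2, a subunit of the signal peptidase that removes signal peptides, was lower in adenomas (10.29 to 10.84, against 10.98 to 11.16 in PB liver), with -0.52 ± 0.11 (adjusted p 0.00119). In carcinomas (10.14 to 10.40, against 10.87 to 11.34 in untreated liver) the difference was -0.83 ± 0.11 (adjusted p 8.62e-07), whereas its other probe set, of nearly the same brightness, gave -0.006 (adjusted p 0.969). Tram1, which helps chains pass into the channel, read 10.23 to 10.77 in carcinomas and 11.26 to 11.61 in untreated liver, lower, at -0.83 ± 0.096 (adjusted p 2.65e-07), and its adenoma difference was -0.12 ± 0.096 (adjusted p 0.397).

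Sec61b, the small channel subunit, and Ssr1, Ssr2 and Ssr3, subunits of the translocon-associated TRAP complex, passed in neither tumour type. Their differences lay between -0.14 and 0.043 in adenomas and between 0.035 and 0.15 in carcinomas. The 95% intervals in carcinomas were -0.21 to 0.28 for Sec61b, -0.055 to 0.33 for Ssr1, -0.085 to 0.39 for Ssr2 and -0.16 to 0.29 for Ssr3. Carcinoma values of Ssr1 (10.90 to 11.11) all lay above untreated liver (10.71 to 10.90), and 1 of its other probe sets was higher and 1 lower there.

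Phenobarbital alone, in PB liver against untreated liver, gave no call among the members. Dnajb9 came closest. It read 11.48, 11.62, 11.36, 11.38 and 11.48 in PB liver and 10.92, 10.99, 11.16, 11.24 and 11.10 in untreated liver, with every PB liver above every untreated liver. Its difference was 0.38 ± 0.16, with an adjusted p of 0.74 over all genes in the fit of 4 groups and of 0.0419 when only these 2 groups were fitted. Derl1 was the other member at an unadjusted p under 0.05, with 0.26 ± 0.12 (adjusted p 0.847). Pdia5 groups did not overlap either, with PB liver lower (-0.21 ± 0.19, adjusted p 1.0). The groups were thus apart for 2 of 34 members (5.88%), against 855 of 18193 genes. All 34 differences lay between -0.23 and 0.38 with a median of 0.021.

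Whether the tumour types differed in their effect was tested as the adenoma difference minus the carcinoma difference, each against its own control. By that test 14 members differed, 13 with a higher value in adenomas (38.2%, against 23.2% of all genes) and 1, Sec61a1, with a lower value (2.94%, against 23.5% of all genes). The value was 1.92 ± 0.27 for Pdia5 (adjusted p 7.36e-06), 1.38 ± 0.23 for Edem1 (6.15e-05) and 1.30 ± 0.28 for Creld2 (0.000834). Sec63 (1.19 ± 0.14), Derl3 (1.10 ± 0.24), Syvn1 (1.03 ± 0.25), Dnajc3 (0.74 ± 0.23), Tram1 (0.71 ± 0.14), P4hb (0.70 ± 0.17) and Atf6 (0.63 ± 0.22) followed, with adjusted p between 1.13e-06 for Sec63 and 0.0222 for Atf6. Sec61a1 stood at -0.59 ± 0.19 (adjusted p 0.0138), a call lost with the mean of all its probe sets (-0.393, adjusted p 0.0652).

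The largest such value, 1.93 ± 0.18 for Derl2 (adjusted p 2.4e-08), came from the brighter probe set alone, since the other gave -0.077 with an adjusted p of 0.73. Hspa5, at 0.50 ± 0.19 (adjusted p 0.0373), lost the call without untreated array 1, 2 or 4, PB array 1 or 3, carcinoma 1 or 2, or adenoma 1, 2, 3 or 4 (up to 0.0742), and without untreated arrays 3 and 4 together (0.0514). Pdia4, at 0.62 ± 0.23 (adjusted p 0.0306), lost it without untreated array 4, PB array 5, carcinoma 1, or adenoma 1 or 3 (up to 0.061). The Pdia4 call was also lost with the mean of its probe sets (0.273, adjusted p 0.122), and its dim probe set gave -0.072. The dimmest Hspa5 probe set gave 0.259 (adjusted p 0.184), and quantile normalization gave 0.429 for Hspa5 (adjusted p 0.084). With the mean of all probe sets, Calr (0.588, adjusted p 0.0133), Herpud1 (0.925, adjusted p 0.0466) and Sel1l (0.621, adjusted p 0.00212) also differed with a higher value in adenomas, and Ssr1 with a lower one (-0.36, adjusted p 0.0325). The members with no difference by this test include Hyou1 at 0.011 (95% interval -0.47 to 0.49) and Manf at -0.008 (-0.47 to 0.45).

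Set directly side by side, adenomas were higher than carcinomas for 15 members (44.1%, against 33.7% of all genes) and lower for 3 (8.82%, against 28.7% of all genes). These values share their samples with the comparisons above. The largest were Derl2 (1.86 ± 0.12), Pdia5 (1.72 ± 0.19) and Creld2 (1.42 ± 0.20), and the 3 lower were Dnajb11 (-0.50 ± 0.16), Sec61a1 (-0.57 ± 0.13) and Xbp1 (-0.26 ± 0.097, adjusted p 0.0272). The Derl2 difference rested on the probe set used, and with the other one it was 0.033 (adjusted p 0.815). The Xbp1 call was lost with the mean of all probe sets (-0.149, adjusted p 0.214) and without carcinoma 1 or 5 or adenoma 2 or 4 (up to 0.0911). That of Spcs2 (0.30 ± 0.11) was lost without adenoma 5 (0.0612) and when only the groups compared were fitted (0.0507). The other Spcs2 probe set, of nearly the same brightness, passed in the opposite direction (-0.505, adjusted p 0.003). The mean of both Spcs2 probe sets gave -0.103 (adjusted p 0.428).

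By promoter class, of the 9 members with an ERSE in the window 7 were lower and 0 higher in carcinomas, and in adenomas 3 were lower and 1 higher. Of the 18 with an entry but no ERSE, 10 were lower and 1 higher in carcinomas, and 6 were lower and 0 higher in adenomas. These 18 include Dnajb11 and Herpud1, which hold the ERSE-II. Of all genes 37.7% were lower and 31.5% higher in carcinomas, and 11.3% and 13.5% in adenomas. The median log2 difference in carcinomas was -0.43 in the class with the element and -0.71 in the class without it. Pdia5, Edem1, Derl2 and Sec63, with the largest falls in carcinomas on the probe sets used, are all in the class without it. The other Derl2 probe set gave -0.883 there, and the other Sec63 probe sets lay between -1.847 and -0.038. Whether the element has a part in these differences was not tested.

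Members that passed mostly had other probe sets that moved alike, whereas several that did not pass had other probe sets that did. Of 17 members that passed in carcinomas and had other probe sets, 15 had at least 1 other that passed in the same direction, and 0 had an opposite one. The 2 without were Pdia4 and Spcs2. The p-values of single probe sets were adjusted over all 34945 that name 1 gene. In adenomas 9 of 10 had such a probe set, Pdia6 being the exception, and 0 had an opposite one. With the dimmest probe set the adenoma call was lost for Dnajc3 (-0.498, adjusted p 0.151), Pdia6 (-0.391, adjusted p 0.0725) and Sec63 (-0.302, adjusted p 0.0939). Of the 7 members with other probe sets that did not pass in carcinomas, 6 had at least 1 other that passed, and these were Hsp90b1, Canx, Pdia3, Atf6, Xbp1 and Ssr1. In Canx, Pdia3 and Ssr1 such a probe set went against the one used. In adenomas 3 of 14 had one, Atf6, Canx and Ssr1, against the one used in Canx.

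**Figure D4:**
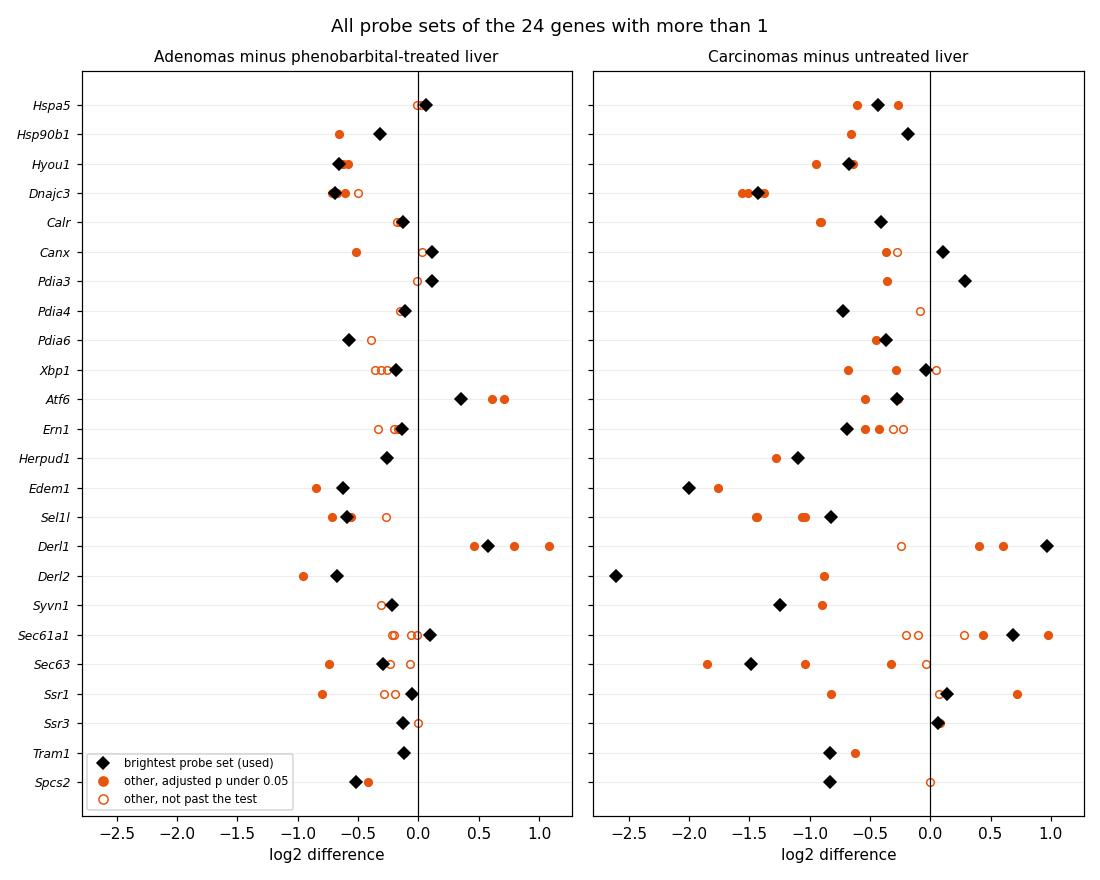
Log2 differences of every probe set of the 24 genes with more than 1, adenomas minus PB liver on the left and carcinomas minus untreated liver on the right, with the probe set used as a diamond and the others as circles, filled where they passed. Probe sets of Edem1, Dnajc3 and Herpud1 lie close together, whereas those of Derl2, Sec63, Ssr1 and Spcs2 lie apart in carcinomas.

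Within a group, 1 array was often highest or lowest for many members. Untreated array 4 was highest of its group for 21 of 34 members and untreated array 3 lowest for 22. In PB liver array 4 was highest for 16 and array 3 lowest for 16. Among carcinomas array 3 was highest for 15 and array 1 lowest for 14, and among adenomas array 3 was highest for 13 and array 2 lowest for 12. The median SD of a member was 0.29 in adenomas, 0.20 in carcinomas, 0.10 in PB liver and 0.14 in untreated liver, against 0.23, 0.21, 0.14 and 0.17 over all genes in the same order. Leaving out untreated arrays 3 and 4 together, a choice made after seeing the data, left 21 of the 23 carcinoma calls, without Dnajb11 (adjusted p 0.0521) and Pdia6.

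The secreted cargo was also lower in carcinomas, by a larger median. All 20 measured genes of secreted liver proteins were lower in carcinomas, with a median log2 difference of -4.57, led by Apob (-5.91), F2 (-5.60) and Kng1 (-5.44), the genes of apolipoprotein B, prothrombin and kininogen. Their summed linear level was 3109 to 77837 in carcinomas and 336883 to 364514 in untreated liver. In adenomas 1 of 20 was lower, Itih1 (-1.67 ± 0.39, adjusted p 0.00367), with a median of -0.18 and a summed level of 264403 to 309407, against 317567 to 334302 in PB liver. The part of this cargo in the values of the 34 genes was not tested.

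Other genes of the same steps, not among the 34, moved in both directions. Of 15 further entry genes 7 were higher and 4 lower in carcinomas, among them the channel gene Sec61a2 (1.54), the signal recognition particle gene Srp14 (0.95) and the signal peptidase gene Spcs3 (-0.84), and 2 were higher and 1 lower in adenomas. Of 20 further folding genes 6 were higher and 10 lower in carcinomas. There the paralogous oxidases that recharge PDI split, with Ero1a higher (2.07 ± 0.23, adjusted p 1.43e-07) and Ero1b lower (-2.74 ± 0.25, adjusted p 6.37e-09). In adenomas 2 of these 20 were higher, the prolyl isomerase gene Fkbp11 (1.51) and the reductase gene Dnajc10 (1.46), and 3 lower. Dnajc10 was higher in carcinomas as well (1.15).

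Of 17 glycosylation genes 4 were higher and 5 lower in carcinomas, with Ddost, a subunit of the oligosaccharyl transferase, at 0.75 and the glucosidase gene Mogs at -1.39, and 3 were higher and 2 lower in adenomas. Of 16 further degradation genes 2 were higher and 8 lower in carcinomas, and 2 higher and 2 lower in adenomas. Edem2 (-1.66), a relative of Edem1, and Os9 (-1.23), a lectin of the degradation complex, led the falls in carcinomas, and Os9 was lower in adenomas too (-0.89). Of 27 genes of transport to the Golgi 8 were higher and 14 lower in carcinomas, from Sec16b (-4.87), an organiser of ER exit sites, to the retrieval receptor gene Kdelr3 (2.06). In adenomas 3 of the 27 were higher and 8 lower, with Sar1b, a small GTPase of the COPII coat, at -0.74.

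Of 14 further stress-response genes 5 were higher and 5 lower in carcinomas, and 5 higher and 1 lower in adenomas. In carcinomas Creb3l3, a hepatocyte factor related to ATF6, was lower (-4.19 ± 0.19) and its relative Creb3l2 higher by 1.999 ± 0.15. In adenomas the 5 higher were Trib3 by 2.30 ± 0.38 (adjusted p 0.000159), Ddit3, the factor CHOP, by 1.38 ± 0.21 (8.77e-05), Ppp1r15a by 0.74 ± 0.15 (0.00138), Eif2ak3, which encodes the sensor PERK, by 0.63 ± 0.14 (0.00308) and Atf4 by 0.57 ± 0.14 (0.0054), the last pair named after their values were seen. Chac1, in the same list, did not pass there (0.49 ± 0.24, adjusted p 0.144). Trib3 was lower in carcinomas (-1.15), as was Chac1 (-0.89). These lists, like the members, were drawn up with earlier results of these data known, and their counts are descriptions beside the shares of all genes given above.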

How the data were processed

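Per the labels' protocols, snap-frozen liver was lysed in Trizol, and its RNA was biotin-labelled with an in vitro transcription kit from Affymetrix, the maker of the arrays. The authors deposited log2 expression values for 45037 probe sets on 20 arrays, between 2.67 and 15.1 with array medians of 5.52 to 5.63, and RMA is the tool named by the submitters' processing notes, without a version. RMA makes the distributions of the arrays alike, so a shift of all genes is removed, and it shrinks folds of dim genes. There is no read depth on an array, and precision is limited by how many arrays a group has.

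Genes were named from probe sets with a single symbol (34945, of which 34741 matched the RefSeq gene table of GRCm38.p6, used for names), while 932 had several symbols and 9160 none. The probe set with the highest mean represented each of 18193 genes. The test was limma (version 3.58.1, under R 4.3.3; lmFit, then eBayes, two-sided) in 1 fit of the 4 groups with 16 residual and 3.21 prior degrees of freedom, and p-values were adjusted by Benjamini-Hochberg over all genes within a comparison, with a threshold of 0.05. The script was tested on simulated data. Tables and plots were made in Python 3.11.15 with pandas 2.3.3 and matplotlib 3.10.9.

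The members and all gene lists were chosen with earlier results of these data known. All 34 members are named, and of each other list at most the 3 largest rises and 3 largest falls among genes past the test in a comparison, beside the cell type markers and Apc. Sec61g, Trf, Serpina1a, Igkc and Spp1 were not matched to a probe set naming them alone and were not analysed here. Alternatives were other choices of probe set, a filter on dim probe sets, other moderation, scaling and array weights, a replicate block, fits of only the groups compared and leaving out each array. The labels do not say whether tumours and non-tumour samples share mice, and the replicate numbers were not used as pairs in the main fit. Of 30 pairs of arrays with the same number in different groups, 1 had deviations that correlated above 0.1, in a range of -0.115 to 0.131. Low correlations do not settle whether samples share mice, since tissues of 1 mouse need not deviate alike. Dixon's test was run on each member in each group.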

Additional observations from a re-analysis of the deposited data

Results flagged for a closer look

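Dixon's test was run on the 5 arrays of each group for each of the 34 genes, 136 groups of values in all, and 13 of them held an array far from the rest. Chance gives such a result in about 1 in 20 groups, and genes on the same array are not independent.

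In adenomas, array 5 was low for Hspa5 at 12.92, against 13.37 to 13.48 on the other arrays, and for Pdia5 at 8.89, against 9.95 to 10.25. Array 1 was low for Dnajb9 at 10.15, against 10.899 to 11.11, and array 4 was high for Derl1 at 12.05, against 11.54 to 11.68. Among carcinomas, array 5 was high for Sec61a1 at 12.43, against 11.97 to 12.09, and for Ssr1 at 11.11, against 10.90 to 10.92. Carcinoma array 1 was low for Hyou1 at 8.66, against 9.19 to 9.36, and for Ssr2 at 9.13, against 9.38 to 9.48. Carcinoma array 4 was high for Pdia5 at 8.66, against 7.88 to 8.05, and carcinoma array 3 was low for Herpud1 at 9.498, against 10.49 to 10.84. In PB liver, array 1 was low for Syvn1 at 9.27, against 9.53 to 9.62. Untreated array 3 was low for Sec63 at 9.60, against 9.95 to 10.04, and for Ssr2 at 8.95, against 9.28 to 9.34.

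The effect of the tumour differed between adenomas and carcinomas, each against its own control, for 14 members by the test of the difference itself. The adenoma difference minus the carcinoma difference was 0.499 for Hspa5, 0.736 for Dnajc3 and 1.297 for Creld2 among the chaperones, and 0.700 for P4hb, 0.617 for Pdia4 and 1.922 for Pdia5 among the isomerases. It was 0.625 for Atf6, and among degradation genes 1.379 for Edem1, 1.928 for Derl2, 1.096 for Derl3 and 1.026 for Syvn1. Among entry genes it was 1.189 for Sec63, 0.709 for Tram1 and -0.587 for Sec61a1. Diet and tumour stage differ together here and cannot be told apart.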

How the results depend on the processing

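Counts of members that passed the test moved by less than 1.5 times under the alternatives run, with 1 exception: between PB liver and untreated liver 0 passed, but 1, Dnajb9, did so when only those groups were fitted. That fit called 193 genes higher and 85 lower over all genes, and array weights called 159 and 59, against 37 and 4 in the fit of 4 groups. Leaving out each array in turn gave 0 to 0 members for PB liver against untreated liver, 21 to 25 for carcinomas against untreated liver, 11 to 13 for adenomas against PB liver, 17 to 19 for adenomas against carcinomas and 12 to 16 for the difference of tumour effects. With the replicate number as a replicate block the counts were 24 in carcinomas, 12 in adenomas (Sec63 lost, adjusted p 0.0694), 20 between the tumours, 14 for the difference and 0 for phenobarbital. The same numbers recur in every group, and the labels do not say whether they pair samples.

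Reversals came only from the choice of probe set. With the dimmest probe set of each gene, Pdia3 became -0.359 in carcinomas (adjusted p 0.0043) and 0.334 for adenomas against carcinomas. Canx became -0.52 in adenomas, and for adenomas against carcinomas Xbp1 became 0.271 and Spcs2 -0.505 (adjusted p 0.003 for Spcs2). The difference of tumour effects became -0.072 for Pdia4 and -0.077 for Derl2 with that choice. With the mean of all probe sets, adenomas against carcinomas became 0.429 for Derl1 and -0.103 for Spcs2. The cause was not tested.

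No scaling moved the median log2 difference of all genes by over 0.1. The alternatives change only how the deposited values are summarised, and RMA itself could not be repeated. With 5 arrays a group, small differences on the log2 scale, such as those of Sec61b, Ssr2 and Ssr3, did not pass the test, and for Canx, Xbp1, Atf6, Hsp90b1, Pdia3 and Ssr1 whether a difference passed depended on the probe set. Bulk tissue does not separate cell composition from expression in a cell.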
